A study of Ovis aries with 12 samples.

Results

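TNFRSF12A, the receptor of the cytokine TWEAK, and a small set of tumour necrosis factor (TNF) family ligands, death receptors and adapters were followed through corpora lutea of sheep. Corpora lutea form in the ovary from ovulated follicles and secrete progesterone. Expression was measured in 12 glands on bovine Affymetrix arrays, 3 per group, with 1 array per gland. The groups were day 14 pregnant ewes, day 14 non-pregnant ewes, day 12 pregnant ewes and day 12 non-pregnant ewes, with no treatment or strain in the labels. The titles name day 12 pregnancy for every array, so the groups rest on the source labels alone. Per the labels' protocols, the pregnant ewes were mated with a fertile ram and the others were never bred, only checked for heat with a vasectomized ram to follow the day of the cycle. All glands were frozen at collection as whole tissue.

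The members were all probe sets that the array's annotation assigns to exactly 1 of 10 chosen genes, namely TNFRSF12A, TNFSF12, TNF, TNFRSF1A, TNFRSF1B, FAS, FASLG, TNFSF10, TNFSF13B and TRAF2. Of these genes, 7 had such a probe set, which gave 9 probe sets of the 24016 tested. TNFRSF12A and FASLG had 2 each, and the other 5 genes had 1 each. TNFSF12, the gene of TWEAK itself, was named only on 2 probe sets that also carry another gene's symbol, so no value is given for it. TNFSF10, the gene of the death ligand TRAIL, and TRAF2, an adapter of several TNF receptors, had none under their symbol and were not analysed here.

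TWEAK signals through TNFRSF12A, also called Fn14, a small receptor without a death domain that recruits TRAF adapters and activates NF-kB and stress kinases, and that is known to be induced by injury and growth factors. TNF acts on TNFRSF1A, which carries a death domain, and on TNFRSF1B, which does not, while FASLG acts on the death receptor FAS. In ruminants, uterine prostaglandin ends the life of the corpus luteum late in a cycle without pregnancy, an event called luteolysis in which TNF and FAS signalling have been studied, and a conceptus that signals in time prevents it.

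TNFRSF12A was chosen by its own log2 values, because it stood apart between the day 14 groups and between the non-pregnant groups in these same arrays. Its values in those comparisons, and in the difference of the pregnancy effect between days, are therefore descriptions without a test. Values are log2 units on the deposited RMA scale, and a difference of 1 is a doubling of signal. Differences are given ± the standard error of the limma fit, and its p-values carry a Benjamini-Hochberg adjustment across the whole table. Whole glands were measured, so fewer cells of a type and less RNA per cell cannot be told apart in any value.

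The dimmer TNFRSF12A probe set was high in the day 14 non-pregnant glands and low in all others. It read 6.49, 6.97 and 6.47 in the day 14 pregnant glands, against 9.59, 8.01 and 9.53 in the day 14 non-pregnant glands. It read 7.25, 6.68 and 6.54 in the day 12 pregnant glands, against 6.50, 6.47 and 6.66 in the day 12 non-pregnant glands. Each day 14 non-pregnant gland lay above each of the 9 others, with a gap of 0.76 between the lowest of the first and the highest of the second.

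The brighter TNFRSF12A probe set had the same group on top by a smaller margin. Its values were 8.08, 8.03 and 7.56 in the day 14 pregnant glands, against 9.26, 8.33 and 9.41 in the day 14 non-pregnant glands. They were 8.12, 8.01 and 7.71 in the day 12 pregnant glands, against 8.11, 8.04 and 7.97 in the day 12 non-pregnant glands. Here the gap above the 9 other glands was 0.21. Of all probe sets tested, 2.91% were higher in each day 14 non-pregnant gland than in all 9 others, which is the background of that pattern and no test of the gene.

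Replicate 2 of the day 14 non-pregnant group was the lowest of its group by both probe sets, and replicates 1 and 3 lay close together. The group's spread was accordingly the widest of the 4, with 9.04 ± 0.90 for the dimmer and 9.00 ± 0.58 for the brighter probe set (SD, n = 3). The SD of the other groups lay between 0.10 in the day 12 non-pregnant and 0.37 in the day 12 pregnant glands for the dimmer probe set. For the brighter it lay between 0.0697 in the day 12 non-pregnant and 0.29 in the day 14 pregnant glands.

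**Figure D1:**
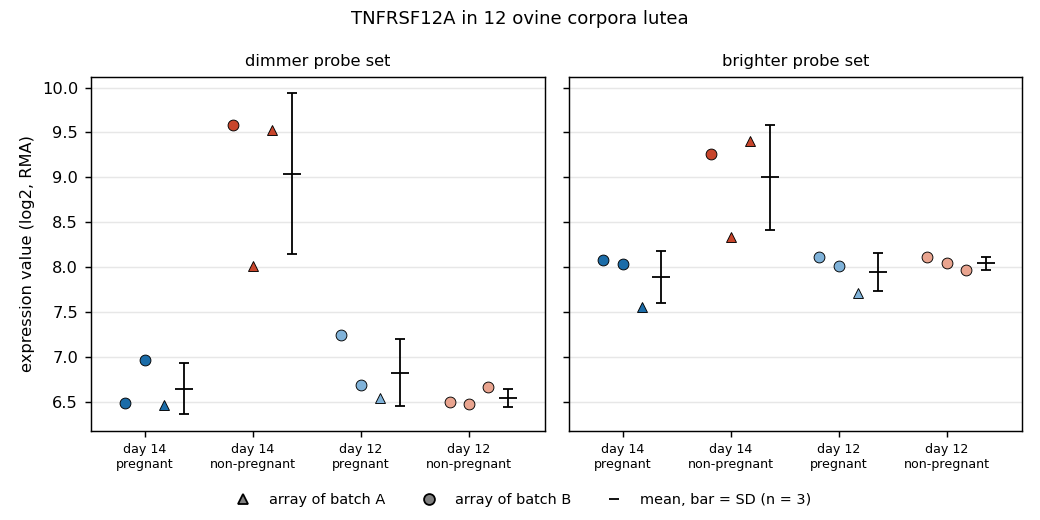
Log2 expression values of the dimmer (left) and brighter (right) TNFRSF12A probe set in each of the 12 corpora lutea, by group, with triangles for arrays of batch A, circles for batch B and the mean ± SD of 3 glands as bars. The day 14 non-pregnant glands sit above all 9 others in both panels, by a gap of 0.76 for the dimmer and 0.21 for the brighter probe set.

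In the fit, the dimmer probe set was lower in day 14 pregnant than in day 14 non-pregnant glands by -2.57 ± 0.32, which makes the day 14 non-pregnant level 5.92-fold the day 14 pregnant one. The brighter gave -1.25 ± 0.21, or 2.38-fold. In day 14 non-pregnant over day 12 non-pregnant glands, the dimmer was at 2.83 ± 0.36 (7.12-fold) and the brighter at 1.24 ± 0.23 (2.36-fold). These comparisons share the day 14 non-pregnant arrays, so they are not separate observations. The pregnancy difference on day 14 minus that on day 12 was -3.01 ± 0.48 for the dimmer and -1.29 ± 0.31 for the brighter probe set.

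The arrays fall into a pair of sets by their description labels, which name a gene array for 4 (batch A) and a genome array for 8 (batch B). Batch A held replicate 3 of each pregnant group and replicates 2 and 3 of the day 14 non-pregnant group. Within batches A and B, the day 14 difference between pregnant and non-pregnant glands was -2.30 and -2.85 by the dimmer TNFRSF12A probe set. By the brighter it was -1.31 and -1.21. Day 14 against day 12 non-pregnant glands could be set side by side only in batch B, where the differences were 3.04 and 1.22. Batch A held no day 12 non-pregnant gland.

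The comparisons on day 12 and between days in pregnancy gave no call for TNFRSF12A. They share arrays with the comparisons that chose this gene, so its p-values in them are not independent of the choice. Between day 12 pregnant and day 12 non-pregnant glands, its difference was 0.45 ± 0.32 by the dimmer probe set (95% interval -0.26 to 1.16, adjusted p = 0.785 in limma). The brighter gave 0.0425 ± 0.21 (95% interval -0.42 to 0.50, adjusted p = 0.979). Between day 14 and day 12 pregnant glands, the dimmer was at -0.18 ± 0.31 (95% interval -0.86 to 0.50, adjusted p = 0.992) and the brighter at -0.0552 ± 0.20 (95% interval -0.50 to 0.39, adjusted p = 0.998). The 3 groups other than day 14 non-pregnant overlapped in both probe sets, so their order by mean, which differed between the probe sets, is within the spread. The intervals leave room for a difference of up to 2.23-fold on day 12, so similar levels were not shown.

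The other members gave no call in any comparison, and none of them had the day 14 non-pregnant glands on top as a separate group. Between the day 14 groups, 0 of their 7 probe sets passed the adjusted threshold of 0.05, while 1.45% of all probe sets did. At an unadjusted p under 0.05 the count was again 0 of 7, against 15.4% of all probe sets, and in 0 of 7 did the groups not overlap, against 18.3%. Their median difference was 0.0352, close to the 0.0291 of all probe sets, with a range from -0.0895 to 0.30. No interval reached past 0.78, or 1.72-fold, in either direction, which lies below both TNFRSF12A differences.

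TNF, the ligand that gives the family its name, was dimmer than the median probe set. It read 4.15, 4.25 and 4.64 in the day 14 pregnant glands, against 4.42, 4.43 and 4.64 in the day 14 non-pregnant glands. The day 12 pregnant glands had 4.26, 4.26 and 4.70, against 4.50, 4.42 and 4.52 in the day 12 non-pregnant glands. The groups overlapped throughout, and the 3 highest values of all belonged to batch A glands. The day 14 pregnancy difference was -0.0385 (95% interval -0.27 to 0.19, adjusted p = 0.904). In batch A it was 0.11, and in batch B -0.22. Day 14 minus day 12 in non-pregnant glands was -0.20 (95% interval -0.46 to 0.0535, adjusted p = 0.548) with the batch term. The plain group means were 4.497 and 4.479, so without that term the sign turned, and within batch B the difference was -0.0553.

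TNFRSF1A, the TNF receptor with a death domain, was the brightest of the other members, brighter than 88.6% of probe sets. Its values were 8.55, 8.60 and 8.62 in the day 14 pregnant glands, against 8.56, 7.90 and 8.42 in the day 14 non-pregnant glands. The day 12 pregnant glands had 8.59, 8.43 and 8.44, against 8.26, 8.28 and 8.40 in the day 12 non-pregnant glands. The low value of 7.90 came from replicate 2 of the day 14 non-pregnant group, the same gland that had the lowest TNFRSF12A of its group. The day 14 pregnancy difference was 0.25 ± 0.14 (95% interval -0.0653 to 0.56, adjusted p = 0.444). In batch A, which held that gland, it was 0.46, and in batch B 0.0158.

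TNFRSF1B, the TNF receptor without a death domain, read 5.20, 5.42 and 5.73 in the day 14 pregnant glands, against 5.48, 5.75 and 5.63 in the day 14 non-pregnant glands. Its day 12 values lay between 5.34 and 5.47 in pregnant and between 5.38 and 5.52 in non-pregnant glands. All 4 groups overlapped, and the day 14 pregnancy difference was -0.0895 (95% interval -0.32 to 0.14, adjusted p = 0.744). Its change between the non-pregnant groups was -0.00527 (95% interval -0.26 to 0.25, adjusted p = 0.992) with the batch term. The plain means were 5.619 in the day 14 and 5.465 in the day 12 non-pregnant glands, and within batch B the difference was 0.0146.

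FAS, the death receptor that binds FASLG, was the steadiest member, with a range of 0.29 over all 12 glands. It read 5.66, 5.82 and 5.95 in the day 14 pregnant glands, against 5.85, 5.79 and 5.82 in the day 14 non-pregnant glands. It read 5.91, 5.76 and 5.69 in the day 12 pregnant glands, against 5.87, 5.86 and 5.76 in the day 12 non-pregnant glands. Its day 14 pregnancy difference was -0.00851 (95% interval -0.24 to 0.22, adjusted p = 0.981), and day 14 minus day 12 in non-pregnant glands was -0.0122 (95% interval -0.26 to 0.24, adjusted p = 0.984).

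FASLG, the ligand that triggers FAS on target cells, gave weak signals by both probe sets. The one named A1 was brighter than only 13.6% of all probe sets and the one named S1 than 20.9%, so a small change in transcript could go unseen. The A1 probe set ranged from 2.61 to 3.14 over the 12 glands and the S1 probe set from 3.12 to 3.62. The day 14 pregnancy differences were 0.0352 (95% interval -0.24 to 0.31, adjusted p = 0.929) and 0.18 (95% interval -0.0997 to 0.46, adjusted p = 0.542). Those of the A1 probe set had opposite signs within the batches, with -0.24 in batch A and 0.29 in batch B.

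TNFSF13B, the B cell survival factor BAFF, was also dim and varied most among the other members, with a range of 1.03. It read 3.57, 3.62 and 4.17 in the day 14 pregnant glands, against 3.38, 3.60 and 3.78 in the day 14 non-pregnant glands. It read 3.58, 3.14 and 3.36 in the day 12 pregnant glands, against 4.10, 3.51 and 3.15 in the day 12 non-pregnant glands. The groups overlapped, and the day 14 pregnancy difference was 0.30 (95% interval -0.19 to 0.78, adjusted p = 0.566). Day 14 minus day 12 in pregnancy was 0.43 (95% interval -0.0389 to 0.89, adjusted p = 0.992), the largest difference of the other members between a pair of groups. In batch A it was 0.81, and in batch B 0.23.

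**Figure D2:**
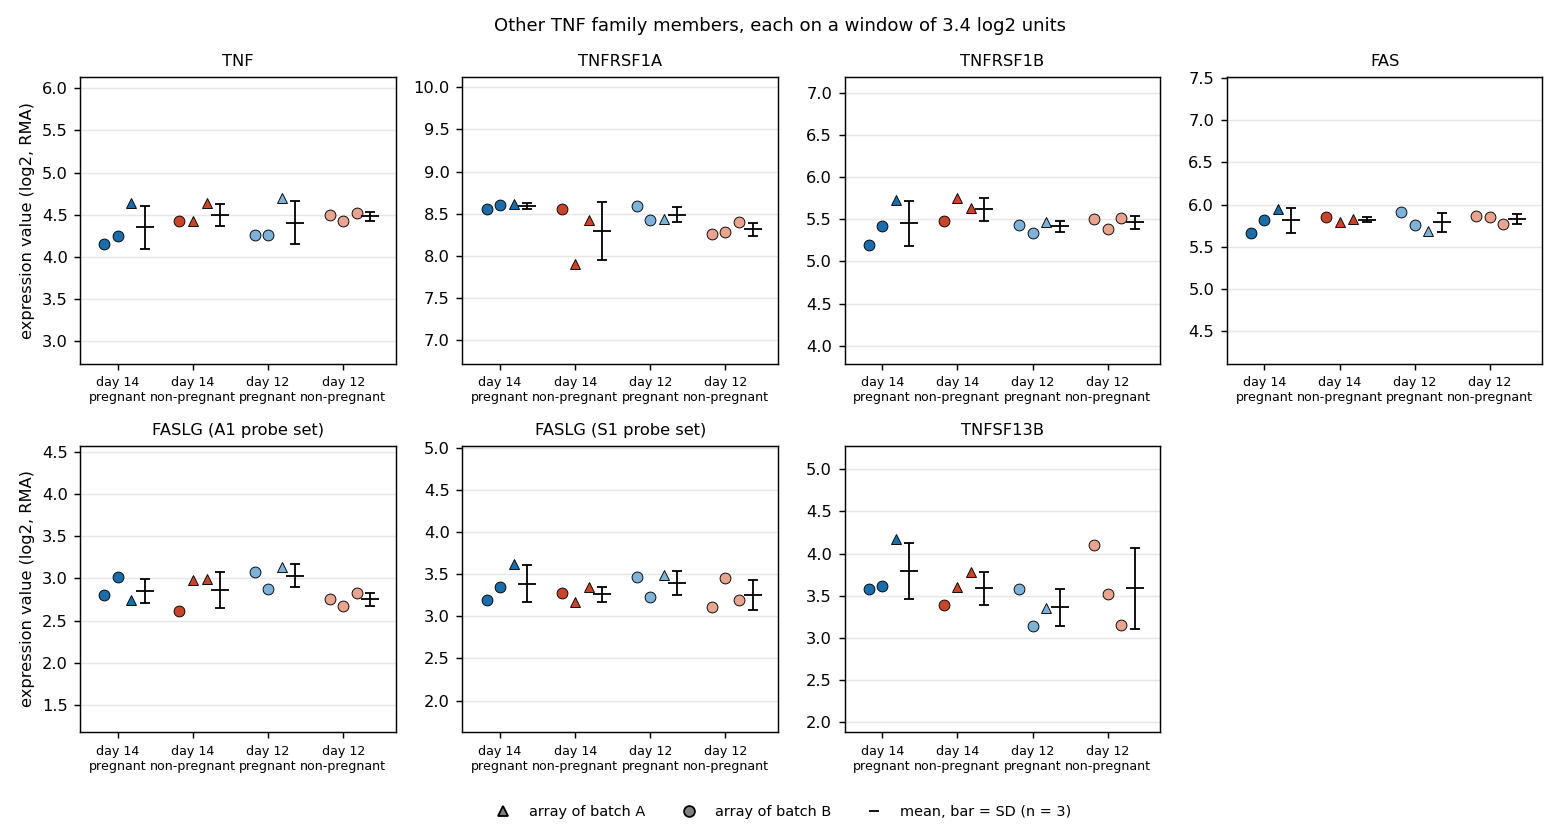
Log2 expression values of the 7 probe sets of the other members in each of the 12 glands, by group, on axes of equal height, with triangles for batch A, circles for batch B and the mean ± SD of 3 glands as bars. The groups overlap on day 14 in all 7, and the lowest TNFRSF1A value, 7.90, is 1 day 14 non-pregnant gland.

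From day 12 to day 14 without pregnancy, 0 of 7 probe sets of the other members passed, against 0.391% of all probe sets, and 0 of 7 had an unadjusted p under 0.05, against 11.7% of all. Their median was -0.0122, beside -0.0258 over all probe sets, and 0 of 7 did not overlap, against 19.8% of all. In pregnancy against no pregnancy on day 12, 0 of 9 passed, as did 0% of all probe sets, and 0 of 9 against 7.69% of all had an unadjusted p under 0.05. TNFRSF1A and the A1 probe set of FASLG were higher in each day 12 pregnant than in each day 12 non-pregnant gland, by 0.22 (adjusted p = 0.760) and 0.24 (adjusted p = 0.698). Such a separation was seen in 16.4% of all probe sets, so 2 of 9 is near the background.

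Between day 14 and day 12 in pregnancy, 0 of 9 passed, as did 0% of all, and 0 of 9 against 4.43% of all had an unadjusted p under 0.05. In 0 of 9 did the groups not overlap, against 9.9% of all. For the change of the pregnancy difference between days, 0 of 7 passed, against 0.0874% of all probe sets. At an unadjusted p under 0.05 the count there was 0 of 7, against 9.42% of all. The widest of these intervals belonged to TNFSF13B and reached 1.33, or 2.52-fold, so the data leave room for a difference of that size.

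**Figure D3:**
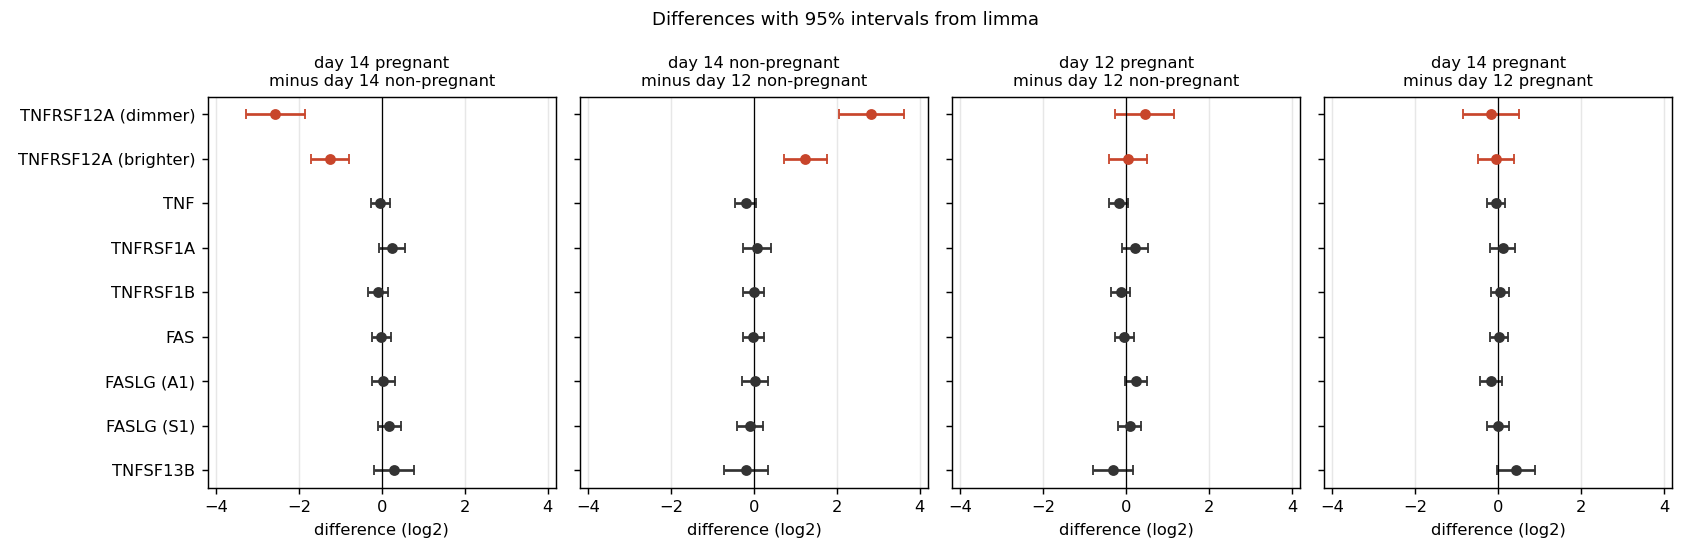
Differences in log2 expression with 95% intervals from limma for the 9 member probe sets in the 4 comparisons between groups, with TNFRSF12A in red and the other members in dark grey. TNFRSF12A was chosen by its values between the day 14 groups and between the non-pregnant groups, so its intervals there are no test. The TNFRSF12A points stand at -2.57 and -1.25 between the day 14 groups and at 2.83 and 1.24 between the non-pregnant groups, while the points of the other members lie between -0.0895 and 0.30 in the first and between -0.20 and 0.0747 in the second.

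Further genes of the pathway were taken from 5 lists, of which 63 of 103 genes had 98 probe sets. Between the day 14 groups, 5 of the 98 were lower in pregnancy and 0 higher, or 5.10% of the list, against 0.912% of all probe sets lower and 0.537% higher. These 5 belonged to TNIP1, TNFAIP6 (with 2 probe sets), MAPK14 and CXCL8. The lists were chosen with earlier results of these data known, so their shares are descriptions and no test of the lists. From day 12 to day 14 without pregnancy, 1 of 98 was higher (1.02%, against 0.291% of all probe sets), again TNIP1, and 0 were lower (against 0.0999% of all). At an unadjusted p under 0.05 the counts were 20 of 98 between the day 14 groups, against 15.4% of all probe sets, and 17 of 98 between the non-pregnant groups, against 11.7%. On day 12, in pregnancy between days and for the change between days, 0 of 98 passed. The unadjusted counts there were 11, 2 and 13 of 98, against 7.69%, 4.43% and 9.42% of all.

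Among other ligands of the family, 0 of 7 probe sets of 5 genes passed in either direction between the day 14 groups, with a median of 0.0871. The smallest p belonged to TNFSF8, the ligand of CD30, at 0.19 (adjusted p = 0.547) and to LTB, a lymphotoxin, at 0.13 (adjusted p = 0.577). LTA and LTB flank TNF in the sheep gene table, and TNFSF13 lies next to TNFSF12. LTA was at -0.00946 (adjusted p = 0.979), and the 2 probe sets of TNFSF13, a relative of TNFSF13B, were at 0.0871 (adjusted p = 0.726) and 0.17 (adjusted p = 0.627). The other LTB probe set was at -0.0253 (adjusted p = 0.976). Neither neighbour of TNF, nor TNFSF13 beside the TWEAK gene, passed the test. The gene on the other side of the TWEAK gene was not in the lists, and its result is not given.

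Among other receptors, 0 of 12 probe sets of 7 genes passed, with a median of -0.0293. TNFRSF25, a death receptor, was at 0.17 (adjusted p = 0.459) by 1 of its 3 probe sets. RELT, a receptor that binds no known TNF family ligand, was at -0.20 (adjusted p = 0.465). On day 12, CD40, the costimulatory receptor of B cells and macrophages, was at -0.40 (adjusted p = 0.570) by 1 of its 2 probe sets. The further probe sets of TNFRSF25 and CD40 are not given. Like the members TNFRSF1A, TNFRSF1B and FAS, these receptors gave no call.

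Among adapters and death signalling genes, 1 of 27 probe sets of 16 genes passed between the day 14 groups, with a median of -0.0557. It belonged to TNIP1, a binding partner of the NF-kB inhibitor TNFAIP3. TNIP1 read 5.99, 6.01 and 6.01 in the day 14 pregnant glands, against 6.60, 6.74 and 6.55 in the day 14 non-pregnant glands. It read 5.93, 6.20 and 5.94 in the day 12 pregnant glands, against 5.79, 5.74 and 5.76 in the day 12 non-pregnant glands. The day 14 non-pregnant glands lay above the other 9, and the difference was -0.64 ± 0.0998 between the day 14 groups (adjusted p = 0.012) and 0.88 ± 0.11 between the non-pregnant groups (adjusted p = 0.00815).

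Replicate 2, the lowest of its group for TNFRSF12A, was the highest of its group for TNIP1. The day 14 difference of TNIP1 was -0.64 in batch A, with -0.60 in batch B. Its other probe sets were at -0.55 (adjusted p = 0.0835) and -0.17 (adjusted p = 0.624) and did not pass. Without day 14 pregnant replicate 3 its adjusted p was 0.0747, and it passed without each of the other arrays in turn. BIRC3, an inhibitor of apoptosis that binds TRAF2, was at -0.55 on day 12 (adjusted p = 0.473) by 1 of its 2 probe sets. The other BIRC3 probe set is not given.

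In the NF-kB and stress kinase list, 1 of 30 probe sets of 18 genes passed between the day 14 groups, with a median of -0.0373. It was 1 of 3 probe sets of MAPK14, the stress kinase p38 alpha, at -0.62 ± 0.12 (adjusted p = 0.0271). It read 7.55, 7.57 and 7.73 in the day 14 pregnant glands, against 7.99, 8.50 and 8.42 in the day 14 non-pregnant glands. The day 12 glands lay between 7.76 and 7.87 with pregnancy and between 7.75 and 7.91 without. The other MAPK14 probe sets gave 0.0288 (adjusted p = 0.938) and -0.10 (adjusted p = 0.766), so the gene's other probe sets did not share the call. JUN, a transcription factor downstream of stress kinases, was at 0.89 (adjusted p = 0.146) and 0.54 (adjusted p = 0.245) between the non-pregnant groups. These were 2 of its 5 probe sets, named for the smallest p of the list there, and the others are not given.

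Among TNF and NF-kB target genes, 3 of 22 probe sets of 17 genes were lower in pregnancy on day 14, with a median of -0.0626. TNFAIP6, a secreted hyaluronan-binding protein named for its induction by TNF, passed by both of its probe sets, at -2.11 ± 0.43 (adjusted p = 0.0367) and -1.15 ± 0.24 (adjusted p = 0.0411). Its brighter probe set read 5.80, 5.62 and 6.44 in the day 14 pregnant glands, against 8.63, 6.85 and 8.36 in the day 14 non-pregnant glands. It read 6.91, 6.23 and 5.87 in the day 12 pregnant glands, against 6.49, 5.82 and 6.29 in the day 12 non-pregnant glands. Replicate 2 was again the lowest of the day 14 non-pregnant group, just under the highest day 12 pregnant gland.

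Within batches A and B, the day 14 difference of TNFAIP6 was -1.17 and -2.92 by the brighter and -0.78 and -1.57 by the dimmer probe set. Between the non-pregnant groups it was at 1.97 (adjusted p = 0.117) and 1.20 (adjusted p = 0.0919) and did not pass. CXCL8, the neutrophil-attracting chemokine interleukin 8, was at -0.59 ± 0.12 (adjusted p = 0.0428). It read 3.44, 3.58 and 3.50 in the day 14 pregnant glands, against 4.04, 4.01 and 4.17 in the day 14 non-pregnant glands. Its day 12 non-pregnant glands, at 3.899, 3.586 and 3.998, were close below, and the probe set was dim, brighter than 26.8% of all. CXCL10, an interferon-induced chemokine, was at 1.03 between day 14 and day 12 in pregnancy (adjusted p = 0.840).

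The calls of TNFAIP6 and CXCL8 lay close to the threshold, and leaving out most single arrays ended them. Leaving out each of the 12 arrays in turn, the brighter TNFAIP6 probe set passed in 4, the dimmer in 1 and CXCL8 in 1 of the 12, while MAPK14 passed in 8. MAPK14 did not pass without any 1 of the 3 day 14 pregnant arrays or without day 14 non-pregnant replicate 3. The dimmer TNFAIP6 probe set passed only without day 14 non-pregnant replicate 2, and CXCL8 only without day 12 non-pregnant replicate 2. The brighter TNFAIP6 probe set passed without either of these, without day 14 pregnant replicate 3 or without day 12 pregnant replicate 1. All 5 pathway probe sets kept their sign in every leave-out, which day 14 groups without overlap largely ensure. The differences ranged over -0.67 to -0.54 for CXCL8, -0.81 to -0.56 for MAPK14, and -2.81 to -1.65 and -1.43 to -0.83 for the brighter and dimmer TNFAIP6 probe set.

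**Figure D4:**
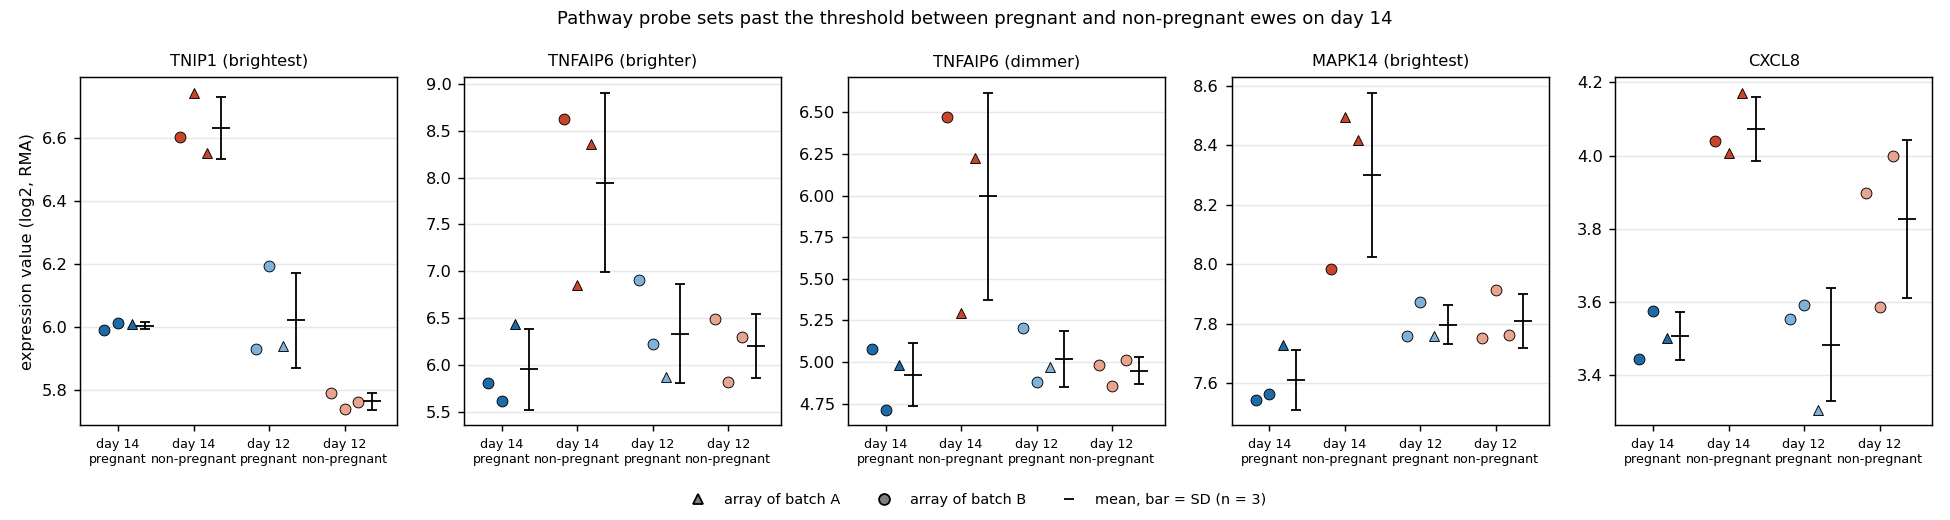
Log2 expression values in each of the 12 glands, by group, for the 5 pathway probe sets that passed the adjusted threshold of 0.05 between the day 14 groups, each on its own axis, with triangles for batch A, circles for batch B and the mean ± SD of 3 glands as bars. In all 5 the day 14 pregnant glands lie below the day 14 non-pregnant glands, and in the panel of CXCL8 the day 12 non-pregnant glands reach 3.998.

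Among 9154 other genes, likeness to TNFRSF12A was measured as the root mean square difference between centred log2 profiles over the 12 glands. Each of these genes was taken by its brightest probe set. TNFAIP6 was the nearest gene to the dimmer TNFRSF12A probe set, at 0.42. After it came BHLHE40, a transcriptional repressor (0.46), NDRG1, a gene of stress and hypoxia responses (0.48), STAMBP, an endosomal deubiquitinase (0.48), and ELL2, an elongation factor (0.52). The nearest to the brighter probe set were MED30, a Mediator subunit (0.18), RELL1, a relative of RELT (0.19), AGO2, the slicer of RNA silencing (0.22), CHSY1, a chondroitin synthase (0.24), and SLC2A1, a glucose transporter (0.24).

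By the same measure no other member came near. Their distances were 1.07 to 1.16 from the dimmer probe set, whose own root mean square about its mean was 1.11, and 0.53 to 0.63 from the brighter, with 0.53 about its mean. A flat profile would thus be as near as these members were. Their ranges over the 12 glands were only 0.29 to 1.03, against 3.12 and 1.85 for TNFRSF12A. A measure that weighs size thus says little on whether they share its pattern. The 2 TNFRSF12A probe sets lay 0.63 apart. They shared the highest group, but neither the order of the other 3 nor the size of the difference. The measure favours profiles of equal size, and with profiles scaled to an equal spread 1 and 3 of the 5 nearest genes were shared with those named. TNFAIP6 was then not among the 5 nearest to the dimmer probe set, which SLC2A1 led and which kept STAMBP.

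**Figure D5:**
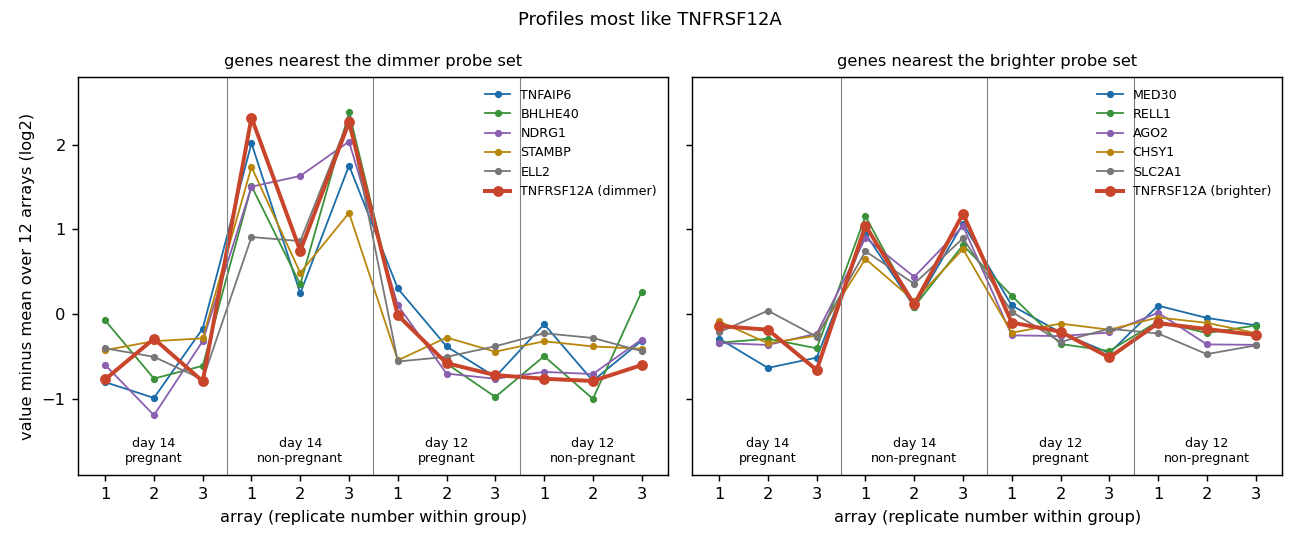
Log2 values centred on their mean over the 12 glands for TNFRSF12A (thick red line) and the 5 genes nearest to its dimmer (left) and brighter (right) probe set, in group order, with lines joining arrays only as a guide. All profiles peak in the day 14 non-pregnant glands, which follows from picking the nearest profiles. Within that group, TNFRSF12A and all of these genes except NDRG1 are lowest at replicate 2.

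The day 14 non-pregnant glands also stood apart as a whole. On the first principal component of all probe sets, which held 29.6% of the variance, they lay between 18.1 and 40.4, and the 9 others between -13.0 and -7.00. Their ratio of 3' to 5' control signals, on the log2 scale, was 1.29 to 1.43, against 1.42 to 1.60 in the others. Array medians lay between 5.16 and 5.24. The tissue label matched its markers, with all 8 luteal genes measured and STAR brighter than 99.8% of probe sets.

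Marker lists differed in part between the same groups. Each marker gene was taken by its brightest probe set alone, so calls and brightness of markers cover no further probe sets. The mean of the 8 luteal markers was 10.7 to 10.9 in the day 14 pregnant and 10.1 to 10.6 in the day 14 non-pregnant glands, and 10.8 to 10.9 in the day 12 glands, with STAR higher in the first by 0.74 (adjusted p = 0.0245) and the other 7 not past the threshold. The mean of the 9 endothelial markers measured was 6.95 to 7.10 and 6.70 to 6.95 in these groups. CD34 and TIE1 were higher in pregnancy, and no other measured marker of this list passed. PECAM1 (-0.404, adjusted p = 0.421), CLDN5 (-0.102), VWF (-0.0969) and CDH5 (-0.0757) went the other way, and TEK, KDR and EMCN the same way as CD34. The mean of the 7 smooth muscle and pericyte markers was 6.80 to 7.26 and 6.96 to 7.33. CNN1 was lower in pregnancy, at -1.54 (adjusted p = 0.000974), and no other marker of this list passed. MYH11 (0.715, adjusted p = 0.0962), DES (0.507) and ACTA2 (0.257) went the other way, and TAGLN, PDGFRB and RGS5 the same way as CNN1. The part of these shifts in the TNFRSF12A values was not tested.

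Macrophage markers, 8 of 10 measured, had means of 6.68, 7.12 and 7.24 in the day 14 pregnant glands, against 6.62, 7.46 and 7.67 in the day 14 non-pregnant glands, with 0 past the threshold. The gland with the highest value of the dimmer TNFRSF12A probe set, replicate 1 of the day 14 non-pregnant group, had the lowest macrophage mean of its group, inside the 6.53 to 6.99 of the day 12 glands. By the brighter probe set the highest gland was replicate 3, which had the highest macrophage mean of all 12, at 7.67. The part of macrophage content in the TNFRSF12A values was not tested. The neutrophil markers, 4 of 7 measured, gave 4.49 to 4.60 in the day 14 pregnant and 4.55 to 4.90 in the day 14 non-pregnant glands. The T and NK cell markers gave 5.20 to 5.42 and 5.15 to 5.35. The fibroblast markers gave 9.94 to 10.5 and 10.0 to 10.4, and the B cell markers, 3 of 6 measured, 3.48 to 3.63 and 3.41 to 3.56. None of these 4 lists had a marker past the threshold. No marker, taken by its brightest probe set, lay among the dimmest 20% of probe sets.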

How the data were processed

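The deposited table holds log2 expression values of 24128 probe sets made by the authors. The tool was Affymetrix Expression Console with RMA, per the submitters' processing notes. This method corrects background, equalises the arrays by quantiles and sums probes. Versions and settings are not given in the sources used here, and there are no detection calls. Sheep RNA met bovine probes, so levels of different probe sets are not amounts of transcript. Groups came from the source labels; the titles, which name day 12 pregnancy for every array, were not used.

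After removing 112 control probe sets, a limma 3.58.1 model (R 4.3.3) with group means and an additive batch term was fitted to 12 arrays, with 7 residual and 4.391 prior degrees of freedom. The two-sided moderated test was adjusted by Benjamini-Hochberg over 24016 probe sets at 0.05. It was checked on simulated data with independent noise and no batch effect, so that check does not cover the uneven batches of these arrays. P-values measure the spread between glands, and the number of arrays limits the precision. Whether the batch names stand for array designs or runs was not settled.

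Symbols came from GEO's bovine annotation, in which 13292 probe sets carry 1 symbol, 86 carry several and 10638 carry none. The sheep gene table (ARS-UI_Ramb_v3.0) gave only neighbours. No sequence is shown, because none of these probe sets had one in the sources used here. The members and lists were chosen with earlier results of these data known. Named genes are all members, the list probe sets past the threshold (in a list without any, from its 2 with the smallest p) and the 5 genes nearest to each TNFRSF12A probe set. The list genes LTA and TNFSF13 were named as neighbours, and marker genes for the lists they belong to. The fit was repeated with no batch term, a random batch block, only the groups compared, array weights, a trended robust prior, no dim probe sets, median centring, each array left out, and the day 14 non-pregnant group without its arrays of batch A.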

Additional observations from a re-analysis of the deposited data

Results flagged for a closer look

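The brightest TNIP1 probe set was lower in each pregnant than in each non-pregnant gland on day 14, and higher in each pregnant than in each non-pregnant gland on day 12. The pregnancy difference on day 14 minus that on day 12 was -0.90 ± 0.15. That change between days did not pass in limma (adjusted p = 0.0603), and neither did the day 12 difference of 0.27 (adjusted p = 0.591). For the other TNIP1 probe sets the same value was -0.49 (adjusted p = 0.479) and -0.19 (adjusted p = 0.830).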

How the results depend on the processing

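Without TNFRSF12A in the 3 comparisons that chose it, where it was not counted, the number of members past the threshold was 0 in every comparison under each of the 20 alternatives (19 for the change between days, where a fit of the groups compared uses all arrays). The lowest adjusted p of the other members in any of them was 0.265, and 20 of their 35 differences, all uncalled, changed sign in some alternative. TNFRSF12A kept its signs between the day 14 groups, at -2.96 to -2.27 and -1.49 to -1, and between the non-pregnant groups, at 2.47 to 3.15 and 0.94 to 1.43. Groups of this gene that do not overlap, by which it was chosen, largely ensure those signs. With the day 14 non-pregnant group reduced to its batch B array, the day 14 differences were -2.83 and -1.23, a fit in which that lone array is assumed to vary like the other groups. The pathway counts moved more. Between the day 14 groups, 5 probe sets passed, against 9 without a batch term, 9 with batch as a random block, 0 in a fit of only those groups, 2 with array weights, 8 with arrays centred on their medians and 3 with that batch B array alone. Leaving out 1 array gave 1 to 6, with 1 left without any of the 3 day 14 pregnant replicates, 3 without day 12 pregnant replicate 1 and 2 without any 1 of day 12 pregnant replicates 2 and 3 and day 12 non-pregnant replicates 1 and 3. Between the non-pregnant groups, 1 passed, against 7, 7, 0 and 4 with no batch term, the random block, only those groups and the batch B array alone, and 1 to 4 in the leave-outs (4 and 2 without day 14 non-pregnant replicates 2 and 3). For the change between days, 0 passed, against 1, 1 and 1 with no batch term, the random block and the batch B array alone, and 0 to 3 in the leave-outs (3 without day 14 non-pregnant replicate 2). Why the counts moved was not tested, apart from fewer arrays in the smaller fits. The adjusted p in the day 14 comparison ranged over 0.00528 to 0.135 for TNIP1, 0.00321 to 0.209 and 0.000899 to 0.227 for TNFAIP6, 0.0117 to 0.234 for MAPK14 and 0.031 to 0.251 for CXCL8. Likeness was measured on values without batch adjustment. With the fitted batch effect subtracted from the values, 4 and 2 of the 5 genes nearest to the dimmer and brighter TNFRSF12A probe set were shared with those named. No paired analysis was possible because replicates were only numbered by accession order, so no number pairs samples. A dim probe set, as for FASLG and TNFSF13B, cannot be told from one without signal.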
